A study of Mus musculus with 4 samples.

Results

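Knockdown of Cbx8 by a short hairpin RNA (shRNA) was compared with a control hairpin in MMTV-Myc cells, a line from a mouse mammary tumour in which the promoter of mouse mammary tumour virus drives a Myc transgene, chiefly in mammary epithelium. The comparison used 2 of the 4 libraries of the series, 1 library per group, and so has no replicates, no test and no estimate of biological spread. The control library is labelled shLuc in the table and scrambled elsewhere, and the knockdown library sh68. The genotype label is wild type for the control and Cbx8 knockdown for the other culture. Each was infected with a pLKO.1 lentivirus carrying 1 hairpin and put under 2 µg/ml puromycin from day 2 after infection, for at least 4 days. A single hairpin was used against Cbx8, and the sources used here do not give the culture format (attached or spheres). Polyadenylated RNA was read in single reads of 100 nt. Of 11708 rows in the authors' table, 10600 were described here, those with at least 1 FPKM (fragments scaled by transcript length and library size) in either library. Rows with gene symbols of the Mir, Snor or Scarna series, and rows with a value of exactly 1 and no statistic, were set aside first (86 rows). At the edge of that minimum, Lpin3, at 0.778 FPKM with the control and 1.00 with the Cbx8 hairpin, was kept, and Trpm4, at 0.788 and 0.996, was not.

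Cbx8 is 1 of the chromodomain subunits of canonical Polycomb repressive complex 1 (PRC1), which binds histone H3 trimethylated at lysine 27 and ubiquitinates histone H2A, and it shares this place with related subunits such as Cbx2, Cbx6 and Cbx7. The trimethyl mark is laid by Polycomb repressive complex 2 (PRC2). The series title ties Cbx8 to Wdr5, a core subunit of the complexes that methylate histone H3 at lysine 4 (H3K4), a mark of active promoters. In the mammary gland, Polycomb complexes are known for holding developmental and cell cycle inhibitor genes, such as the Cdkn2a locus, at low levels.

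The Cbx8 gene lies on chromosome 11 (mm9, 118899749 to 118902227). Its level was 4.74 FPKM under the control hairpin and 1.23 FPKM under the Cbx8 hairpin, the direction the labels give, so a residual transcript was still measured. In the authors' deposited table this row had q = 0.385. On the log2 scale with 1 FPKM added to each value, used for every log2 fold change here, the difference was −1.36, which understates the change of low genes. Measured genes on either side of Cbx8 give its surroundings. Upstream on the chromosome map, C1qtnf1 was at 6.53 and 6.54 FPKM and Engase at 3.10 and 2.23. The paralogue Cbx2 was at 2.50 and 1.64 FPKM (log2 fold change −0.40). On the other side Tbc1d16 was at 5.33 and 3.54 FPKM (−0.48) and the lysosomal glucosidase Gaa at 33.7 and 42.1. With 1 FPKM added, none of these 5 neighbours reached 1.5-fold, although as plain ratios Cbx2 (1.52) and Tbc1d16 (1.51) just did.

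The 2 libraries were close over most genes. The median was 16.6 FPKM with the control and 16.5 FPKM with the Cbx8 hairpin, the log2 values had a Pearson r of 0.988 across genes, which are not independent replicates, and the log2 fold changes had a median of −0.006 and an SD of 0.27. In 10168 genes (95.9%) the difference was under 1.5-fold. On that scale 25 genes were at least 2-fold higher in the knockdown library (0.236% of all genes described) and 38 at least 2-fold lower (0.358%). Together these are 0.594% of the genes. At 1.5-fold there were 214 higher (2.02%) and 218 lower (2.06%), together 4.08%. The spread depended on level. Among 1285 genes with a mean between 2 and 5 FPKM the SD was 0.33 and 1.63% passed 2-fold, whereas among 2546 genes between 30 and 100 FPKM the SD was 0.22 and 0.275% passed. Of the 38 lower genes, 12 were under 5 FPKM in both libraries, against 4 of the 25 higher genes. The depth is unknown, because the table holds no counts. In the authors' deposited table, 14 of these genes were higher with q under 0.05 (0.132%) and 9 were lower (0.0849%), from a test on the reads of 2 libraries that compares those libraries and not the conditions.

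**Figure D1:**
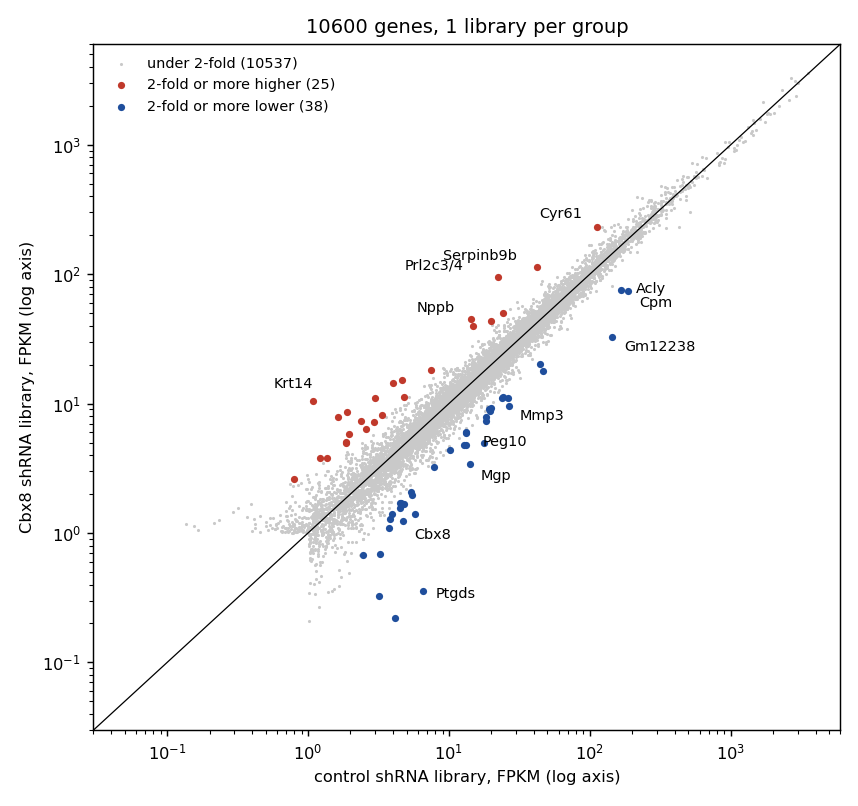
FPKM of 10600 genes in the control library (x, log axis) and the Cbx8 shRNA library (y, log axis), with the line of equal values. Red points are the 25 genes at least 2-fold higher and blue points the 38 at least 2-fold lower with 1 FPKM added to each value; the cloud is wider below 10 FPKM.

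The cells were first set against markers of the mammary epithelium and of other cell types. Of 14 luminal markers 6 were measured, with the keratins Krt8 at 63.2 and 79.3 FPKM, Krt18 at 261 and 256, and Krt19 at 90.1 and 72.3. The luminal transcription factor Gata3 was at 39.8 and 41.6 FPKM. Epcam, at 0.338 and 0.0427 FPKM, and Cdh1, the E-cadherin gene, at 0.283 and 0.206, were below the minimum in both libraries, while the mesenchymal filament gene Vim was at 2687 and 3270 FPKM. Of 10 basal markers only Krt14 was listed at 1 FPKM or more. Among 12 leukocyte markers the only one measured was the lysosomal protein Cd68 (37.6 and 23.9 FPKM), and Ptprc, Tyrobp and Laptm5 have no row in the table. Of 9 fibroblast markers 2 were measured, the collagen Col3a1 at 2.33 and 0.675 FPKM and the matrix protein Fbln1 at 3.76 and 1.72. Col3a1 passed the minimum only through the control library, so the minimum fixed its direction. No endothelial, adipocyte or erythroid marker was measured. In such bulk RNA, fewer cells of a type and less RNA per cell cannot be told apart.

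Among Polycomb genes, Cbx8 was the only one of 25 measured PRC1 members past 1.5-fold, against 4.08% of all genes. Of the 25, 8 had positive values (32.0%, against 48.8% of all genes, with a median of −0.06). Cbx7 was at 9.49 FPKM with the control and 6.22 with the Cbx8 hairpin (−0.54). The ubiquitin ligase subunit Ring1 was at 3.87 and 5.71 FPKM (0.46), the highest value of the list. Of the 11 PRC2 members, 3 were positive. The methyltransferase Ezh2 was at 46.5 and 59.8 FPKM (0.36), the scaffold Suz12 at 54.6 and 47.2 and the accessory subunit Phf19 at 14.98 and 11.9. A PRC2 partner outside the list differed more. E130012A19Rik, which RefSeq lists as Epop, encodes a protein that links PRC2 to elongin BC. It was at 12.8 FPKM with the control and 4.75 FPKM with the Cbx8 hairpin (−1.26), although in the authors' deposited table it did not pass q under 0.05.

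The H3K4 complexes and other partners of Wdr5 lay slightly below the control throughout. None of 18 measured members of the H3K4 methyltransferase complexes had a positive value, and none passed 1.5-fold. By role, the medians were −0.16 for the 4 shared core subunits, −0.23 for 6 enzymes and −0.17 for 8 partners. Dpy30, a core subunit, was at 71.0 and 60.5 FPKM, and the H3K27 demethylase Kdm6a, a partner, at 10.2 and 8.499. All 5 measured members of the NSL and MOF acetyltransferase complexes, which also bind Wdr5, had negative values (median −0.18), with Mcrs1 at 7.27 and 5.36 FPKM and Phf20 at 25.2 and 22.1. Of 6 genes for H3K4 demethylases and their cofactor, 5 were negative as well, with Kdm5b at 16.8 and 13.5 FPKM (−0.30). Negative values made up 51.2% of all genes.

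Of 81 developmental genes that Polycomb complexes occupy in many cell types, 23 were measured. The others were not measured, so the counts cover only genes with at least 1 FPKM in a library. Of the 23, 9 had positive values, against 48.8% of all genes. None passed 1.5-fold, against 4.08% of all genes. Of 33 Hox genes 2 reached the minimum, among them Hoxb4 (2.92 and 3.36 FPKM). Gata6, an endodermal factor, was at 11.1 and 16.1 FPKM (0.50), and the related Gata2 at 24.98 and 17.5 (−0.49). The table holds no row at 0, so it may leave out Hox genes with no reads. The Cdkn2a row, which gives Ink4a and Arf together, was at 418 and 407 FPKM and Cdkn2b at 59.8 and 53.2, so both were abundant in the control already. Cdkn1a (p21) was at 84.2 and 82.0 FPKM. The imprinted inhibitor Cdkn1c (p57) was the member of this class that differed, at 8.07 and 3.79 FPKM (−0.92).

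The genes at least 2-fold higher include epithelial keratin, S100 and laminin genes. Beside the basal keratin Krt14 (1.09 and 10.5 FPKM), the S100 gene S100a7a, of the psoriasin family, was at 1.62 and 7.92 FPKM. S100a8, a calprotectin subunit, was under 2-fold with 1 FPKM added (0.845 and 2.33 FPKM, 0.85) and passed the minimum only through the knockdown library. The laminin Lamb3, which with other chains forms a laminin of the epithelial basement membrane, was at 1.97 and 5.81 FPKM. The plot of these genes shows their levels, with 12 of the 25 higher and 17 of the 38 lower genes under 10 FPKM in both libraries. Among the 25 higher genes, the rows highest in level were Serpinb9b at 42.2 and 113 FPKM and Cyr61 at 113 and 231.

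**Figure D2:**
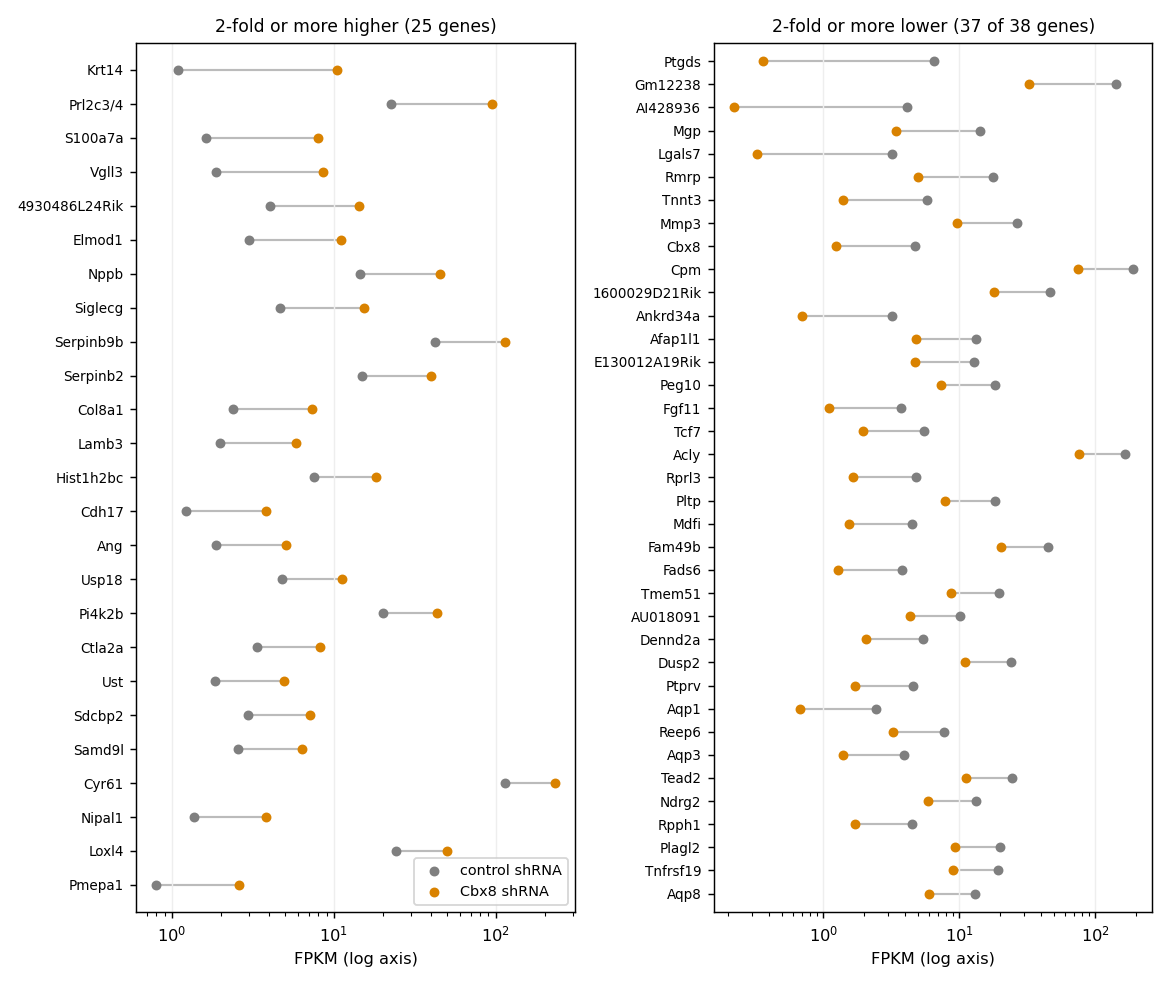
FPKM (log axes) of the 25 genes at least 2-fold higher (left) and 37 of the 38 at least 2-fold lower (right), control library in grey and Cbx8 shRNA library in orange, 1 library each. The lines join the values of a gene; Krt14 runs from 1.09 to 10.5 FPKM and Ptgds from 6.49 to 0.359 FPKM.

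Several of the other higher genes have known enzymatic or trafficking roles. The lipid kinase Pi4k2b was at 20.0 FPKM with the control and 43.2 with the Cbx8 hairpin, and the syntenin-like adaptor Sdcbp2 at 2.93 and 7.15. Ust, a sulfotransferase acting on uronic acid residues of chondroitin and dermatan sulfate, was at 1.85 and 4.92 FPKM. Cdh17, the liver-intestine cadherin, was at 1.22 and 3.80 FPKM and the magnesium transporter family gene Nipal1 at 1.36 and 3.80. The row of Ang and Rnase4, secreted ribonucleases that share a promoter region, was at 1.86 and 5.05 FPKM. The proliferin row Prl2c3 and Prl2c4 (placental prolactin relatives) had 22.4 and 95.04 FPKM, and Prl2c2, a near-identical gene counted in its own row, 0.136 and 1.17. Prl2c2 passed the minimum only through the knockdown library, so the minimum fixed its direction. Of the 14 measured replication histone genes, from a list of 48, 11 had positive values, against 48.8% of all genes. Members near the minimum can owe their direction to it. Hist2h3c1 (0.748 and 1.63 FPKM) passed only through the knockdown library, and Hist1h2af (1.03 and 0.414) only through the control. Hist1h1c was at 24.7 and 40.4 FPKM beside the 2-fold gene Hist1h2bc (7.52 and 18.1). Hist1h4f, which the list leaves out, was lower at 1.73 and 0.461 FPKM (−0.90) and passed the minimum only through the control library. Most such transcripts lack poly(A) tails. Pmepa1, an inhibitor of TGF-beta signalling and itself a TGF-beta target, was at 0.799 and 2.60 FPKM, just past the limit and above the minimum in the knockdown library only. Ctla2a, which encodes a cysteine protease inhibitor related to cathepsin propeptides, was at 3.36 and 8.15 FPKM, and its near-identical neighbour Ctla2b at 2.75 and 3.50, so reads may have been split between them. The gene next to them on chromosome 13, 4930486L24Rik, was at 4.02 and 14.3 FPKM.

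Genes of a list of serpins and the plasminogen system were mostly higher. The list takes in serpins beyond that system, such as Serpinb9b. Of 15 measured serpins and plasminogen genes 12 had positive values (median 0.24), against 48.8% of all genes. The 2 that passed 2-fold were both higher, and 0.236% of all genes were so. The inhibitor Serpinb2 (plasminogen activator inhibitor type 2) was at 14.9 and 39.5 FPKM. All 5 activator-side genes were positive (median 0.27), with the urokinase gene Plau at 115 and 138 FPKM, its receptor Plaur at 106 and 146, and the tissue activator Plat at 77.8 and 98.7. Serpine2, a thrombin and plasminogen activator inhibitor, was lower, at 110 and 84.8 FPKM (−0.37).

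YAP and TAZ are coactivators that the Hippo kinases hold in the cytoplasm and that act in the nucleus on TEAD factors. Of the 16 measured regulators of this pathway 11 had positive values (median 0.04). The coactivator Yap1 was at 77.7 and 78.8 FPKM and Wwtr1 (TAZ) at 55.3 and 55.3. Among the DNA-binding factors, Tead2 was at 24.3 and 11.2 FPKM (−1.05), whereas Tead1 was at 24.3 and 27.5, Tead3 at 4.74 and 4.0996 and Tead4 at 19.8 and 18.2. The cofactor Vgll3, which binds TEADs in place of YAP, was at 1.88 and 8.57 FPKM (1.74), and its relative Vgll4 at 26.1 and 22.5. The Hippo kinase Lats1 was at 13.4 and 19.3 FPKM (0.49). Of 18 targets measured, 15 had positive values (median 0.30 against −0.006 for all genes), and 6 passed 1.5-fold (2.02% of all genes did so). They include the matricellular genes Cyr61 and Ctgf (27.1 and 53.7 FPKM), the muscle ankyrin repeat gene Ankrd1 (81.1 and 129), the tissue factor gene F3 (4.95 and 9.70) and Gadd45b (9.27 and 15.99). The 3 targets with negative values were Nt5e (15.3 and 11.6 FPKM), Wtip and Ptpn14. Since this list was chosen with results of these data known, its direction is a description.

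Promoter stretches of 6 genes with positive values are shown because they hold the letters that TEAD factors are known to bind. Of the 6, Krt14 and Nppb are not in the YAP and TEAD list. The letters searched were GGAATG on both strands, in windows from 250 bases before to 50 bases after each RefSeq start (build GRCm38.p6, whereas the table's gene coordinates are mm9). They were picked after their values and matches were seen. Each line gives 25 bases on either side, 5′ to 3′ on the strand of the gene, and the capitals mark the match, CATTCC being the same letters read from the other strand.
Cyr61 (RefSeq Ccn1, chr3:145650058-145650113, minus strand): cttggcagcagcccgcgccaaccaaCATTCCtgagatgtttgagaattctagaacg
Ankrd1 (chr19:36119937-36120079, minus strand): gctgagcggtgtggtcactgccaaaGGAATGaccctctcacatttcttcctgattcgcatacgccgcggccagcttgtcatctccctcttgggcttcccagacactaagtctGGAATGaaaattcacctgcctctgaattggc
Vgll3 (chr16:65815101-65815156, plus strand): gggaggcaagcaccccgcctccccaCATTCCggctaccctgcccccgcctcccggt
Amotl2 (chr9:102717714-102717769, plus strand): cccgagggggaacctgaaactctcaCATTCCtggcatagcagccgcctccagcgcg
Krt14 (chr11:100206066-100206121, minus strand): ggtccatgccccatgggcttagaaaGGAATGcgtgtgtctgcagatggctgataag
Nppb (chr4:147985770-147985825, plus strand): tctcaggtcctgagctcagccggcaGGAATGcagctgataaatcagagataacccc

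Amotl2, a YAP-binding angiomotin, was at 26.1 and 39.7 FPKM, and the natriuretic peptide gene Nppb at 14.4 and 44.9. The letters occur in 14.7% of 32851 RefSeq promoter windows and in 1199 of the 8562 described genes that have one. They occur in 8 of 13 YAP and TEAD targets with a window (61.5%), in 8 of 20 genes at least 2-fold higher (40.0%) and in 3 of 23 at least 2-fold lower (13.04%). At the 1.5-fold limit the shares were 20.5% of higher and 19.3% of lower genes. A match is a description of the sequence and not a binding site.

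Of 42 measured matrix genes 34 had positive values (48.8% of all genes did; median 0.34). At 1.5-fold 9 were higher and 5 lower, against 2.02% and 2.06% of all genes. All 7 genes for collagen crosslinking and hydroxylation had positive values, led by the lysyl oxidases Loxl4 (24.3 and 50.3 FPKM) and Loxl1 (3.40 and 5.83) and the prolyl hydroxylase subunit P4ha2 (20.4 and 31.4). Of 10 collagens 8 were positive, among them Col8a1 (2.37 and 7.29 FPKM) and the basement membrane chain Col4a1 (143 and 201). The matricellular gene Sparc was at 317 and 479 FPKM and fibronectin, Fn1, at 30.8 and 40.2. The 8 members with negative values include inhibitors and binders of mineral. Mgp, an inhibitor of calcification, was at 14.2 FPKM with the control and 3.44 with the Cbx8 hairpin (−1.77). Osteopontin, Spp1, was at 428 and 231 FPKM (−0.89) and Thbs3 at 7.10 and 3.64. Col3a1 and Fbln1, given above as fibroblast markers, belong to this lower group too, and their part in the result was not tested.

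The matrix-degrading enzymes went in both directions. Stromelysin 1, Mmp3, was at 26.7 and 9.63 FPKM (−1.38), Mmp19 at 2.88 and 1.25 (−0.79) and the gelatinase Mmp2 at 2.81 and 1.32 (−0.72). The membrane-bound Mmp14 was at 66.8 and 88.9 FPKM (0.41). The inhibitors were both higher, Timp1 at 171 and 214 FPKM and Timp2 at 98.2 and 139. Of 9 measured integrin subunits 7 were positive, against 48.8% of all genes, and none passed 1.5-fold. Itgb1 was at 201 and 269 FPKM.

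Actin-associated genes were higher in 18 of 22 measured members (median 0.33), against 48.8% of all genes. At 1.5-fold 3 were higher and 1 lower, against 2.02% and 2.06% of all genes. The largest values were for tropomyosin Tpm4 (234 and 386 FPKM, 0.72), calponin Cnn2 (148 and 239, 0.68) and filamin Flna (157 and 244, 0.63). The focal adhesion protein Zyx was at 262 and 377 FPKM and beta-actin, Actb, often used as a reference gene, at 1705 and 2129. Of the 4 members with negative values, skeletal troponin T, Tnnt3, was the only one past 1.5-fold, at 5.78 and 1.39 FPKM. Among junction genes plakoglobin, Jup, was at 26.6 and 15.4 FPKM (−0.75) and N-cadherin, Cdh2, at 14.7 and 21.4 (0.51).

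**Figure D3:**
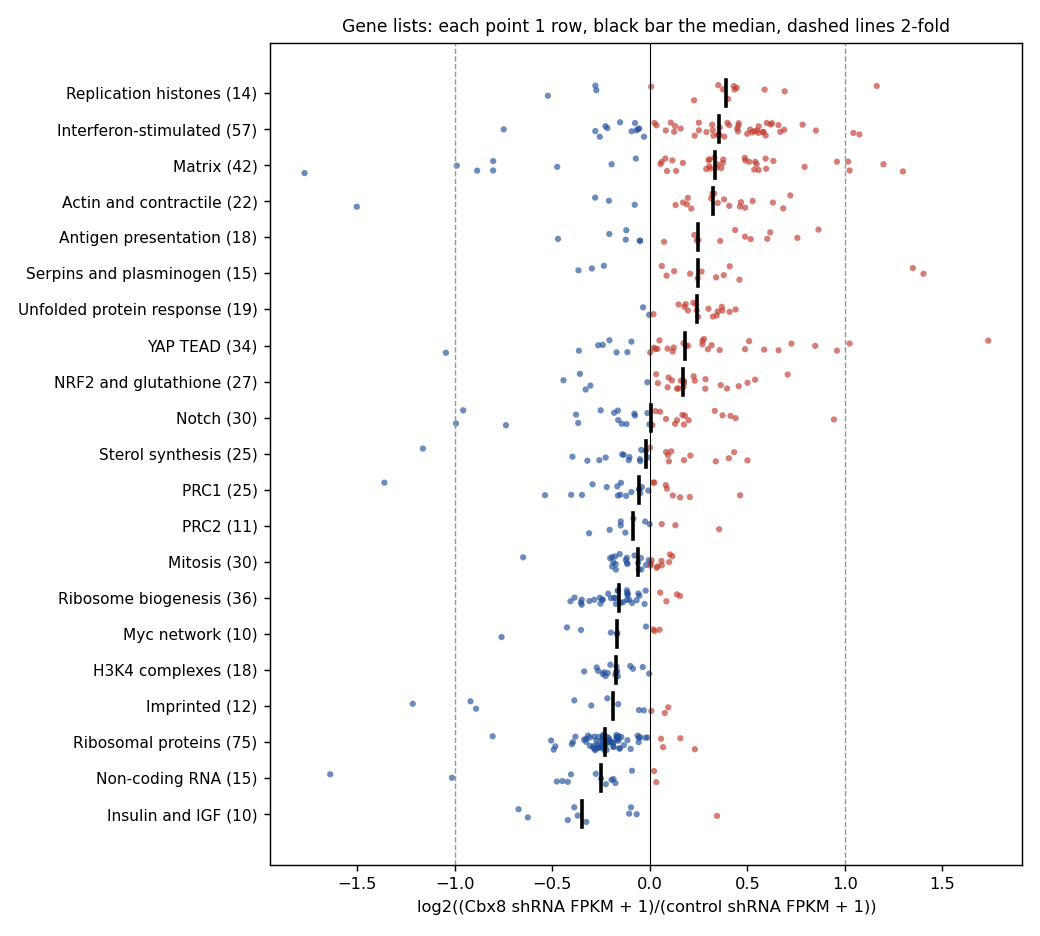
Log2 fold changes (x, with 1 FPKM added to each value, no unit) of the members of 21 gene lists, the number measured in brackets. Each point is 1 row of the table, black bars are medians and dashed lines mark 2-fold; medians run from 0.39 for replication histones down to −0.35 for the insulin and IGF list.

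In the Notch pathway the genes that differed are not all on the same side. Notch receptors are cleaved after a neighbouring cell's ligand binds, and the freed domain switches on target genes with Rbpj. Of the receptors, Notch1 was at 18.1 and 8.83 FPKM (−0.96) and Notch2 at 10.1 and 9.49 (−0.08). The canonical ligand Jag2 was at 14.6 and 6.85 FPKM (−0.99), just under the limit, and Jag1 at 1.51 and 1.76. Dlk2, a non-canonical ligand of the Delta-like family that is known as a Notch inhibitor, was at 3.91 and 8.45 FPKM (0.94). Among 14 processing genes 9 were positive, with nicastrin, Ncstn, at 38.2 and 48.4 FPKM and the fringe glycosyltransferase Lfng at 9.74 and 13.6. Of 11 nuclear factors and targets 4 were positive. Nrarp, a feedback inhibitor, had 21.0 and 12.2 FPKM, Hes1 at 18.1 and 13.8, and Rbpj at 6.03 and 5.97. Over the 30 measured members the values split evenly, 15 positive and 15 negative.

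Wnt proteins bind Frizzled receptors and act on Tcf and Lef factors through beta-catenin. Wnt10b was at 7.04 FPKM with the control and 3.67 with the Cbx8 hairpin (−0.78) and the receptor Fzd7 at 9.28 and 5.56 (−0.65). Wnt10a (0.397 and 1.67 FPKM), Wnt7a (0.166 and 1.05) and Wnt9a (0.963 and 2.19) were under 1 FPKM with the control and passed the minimum only through the knockdown library, so the minimum fixed their direction. The factor Tcf7 was at 5.49 and 1.97 FPKM (−1.13), and Tnfrsf19, a Wnt target receptor also called Troy, at 19.2 and 9.02 (−1.01). Of 26 measured Wnt genes 2 passed 2-fold (Tcf7 and Tnfrsf19), against 0.594% of all genes. The target Ccnd1, cyclin D1, was at 245 and 283 FPKM.

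**Figure D4:**
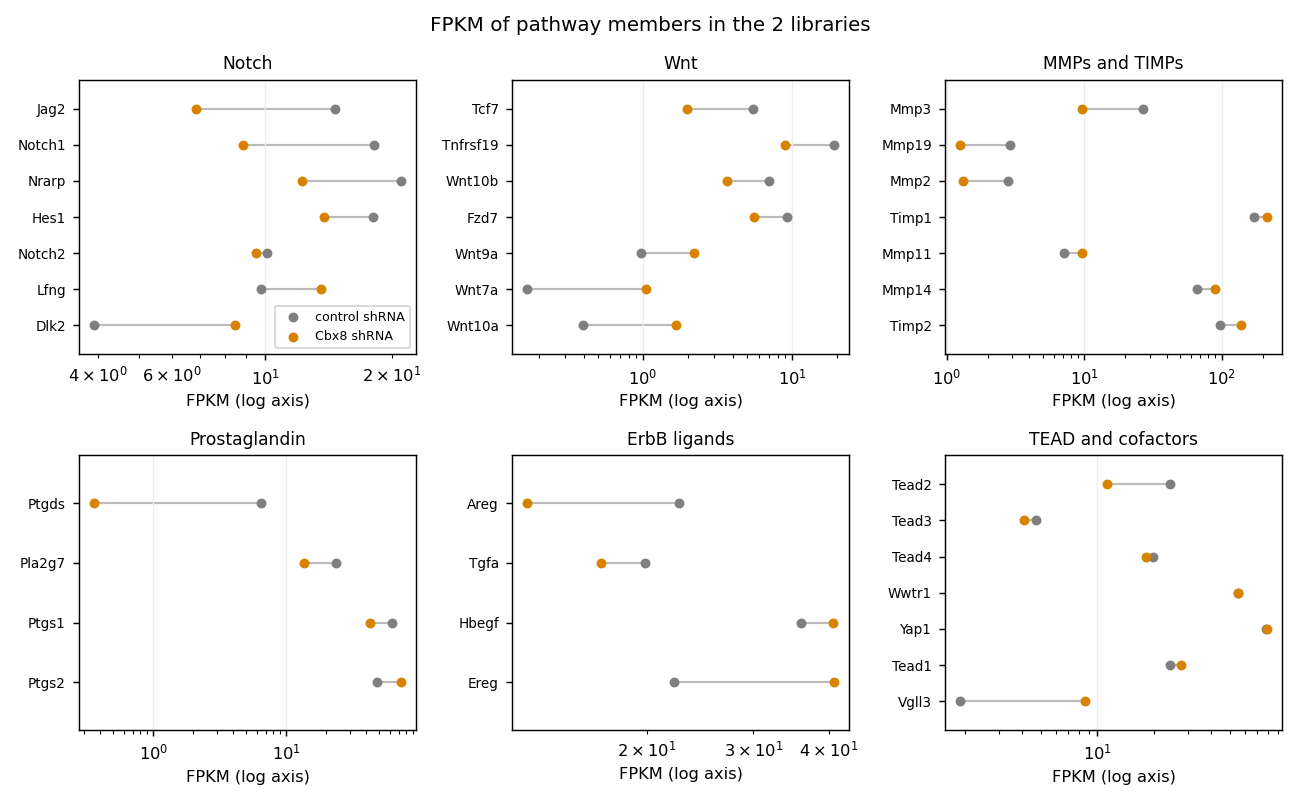
FPKM (log axes) in the control library (grey) and the Cbx8 shRNA library (orange) for selected members of 6 gene groups, 1 library each. Members of a group lie on both sides, for example Areg from 22.6 to 12.7 and Ereg from 22.2 to 40.8 FPKM.

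Ligands of the EGF receptor also differed in opposite directions. Amphiregulin, Areg, which is required for duct growth in the mammary gland, was at 22.6 and 12.7 FPKM (−0.79), and epiregulin, Ereg, at 22.2 and 40.8 (0.85). The 4 measured receptors and feedback genes were within 0.20 of 0 on the log2 scale, with Egfr at 6.22 and 6.05 FPKM and Erbb2 at 10.6 and 10.9. Dusp2, a phosphatase of ERK kinases, was at 23.8 and 10.99 FPKM (−1.05) and the related Dusp6 at 92.8 and 69.9. The FGF family gene Fgf11 was at 3.73 and 1.10 FPKM. Among immediate early genes the nuclear receptor Nr4a1 was at 15.5 and 8.22 FPKM (−0.84). It was the only one of 24 past 1.5-fold, against 4.08% of all genes. In the TGF-beta and BMP list of 37 measured genes the activin antagonist Fstl3 was at 9.58 and 17.7 FPKM (0.82) and the inhibitory Smad6 at 2.02 and 1.09 (−0.53).

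Of 10 measured insulin and IGF genes 9 had negative values (median −0.35), the lowest median of the lists drawn. Igfbp6, which binds IGF2, was at 7.55 and 4.36 FPKM, the adaptor Irs2 at 5.43 and 3.17, and the receptors Insr at 16.2 and 11.8 and Igf2r at 57.5 and 43.7. Igfbp7 was the exception at 43.5 and 55.5 FPKM. Imprinted genes, of which Igf2r is 1, were negative in 9 of 12 measured, against 51.2% of all genes. At 1.5-fold 3 were lower, against 2.06% of all genes. Peg10, a retrotransposon-derived gene needed in placenta, was at 18.4 and 7.34 FPKM (−1.22), Phlda2, an inhibitor of placental growth, at 4.92 and 2.19, and Cdkn1c is given above. Sgce, the neighbour of Peg10 in the same imprinted cluster, was at 31.0 and 33.1 FPKM.

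Lipid genes showed single members and no common direction. Acly, which makes cytosolic acetyl-CoA, was at 166 and 76.0 FPKM (−1.12), yet 7 of 16 fatty acid synthesis genes were positive and no other passed 1.5-fold. The sterol synthesis enzyme Sc5d was at 47.9 and 68.1 FPKM (0.50) and mevalonate kinase, Mvk, at 18.6 and 25.4 (0.43). The phospholipid transfer protein Pltp was at 18.2 and 7.88 FPKM and the desaturase family gene Fads6 at 3.83 and 1.28. In prostaglandin metabolism the D synthase Ptgds was at 6.49 and 0.359 FPKM (−2.46), the lowest log2 value of all genes. Ptgds passed the minimum only through the control library, so the minimum fixed its direction. The cyclooxygenases went apart, Ptgs1 at 62.4 and 42.9 FPKM and the inducible Ptgs2 at 47.9 and 73.2 (0.60). Pla2g7, the phospholipase that breaks down platelet-activating factor, was at 23.6 and 13.6 FPKM. Angptl4, a lipoprotein lipase inhibitor, was at 16.002 and 30.4 FPKM (0.88).

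The other lower genes include surface and secreted proteins and regulators. Carboxypeptidase M, Cpm, was at 188 FPKM with the control and 74.3 with the Cbx8 hairpin, and 1600029D21Rik, listed in RefSeq as the surface protein gene Plet1, at 46.3 and 17.9. Both had q = 0.0325 in the authors' deposited table. Lgals7, the galectin of stratified epithelia, was at 3.21 and 0.324 FPKM. AI428936, which RefSeq lists as Syne4, a nuclear envelope protein of epithelial cells, was at 4.14 and 0.221 FPKM. Mdfi, which holds myogenic factors in the cytoplasm, was at 4.51 and 1.55 FPKM and the zinc finger factor Plagl2 at 19.8 and 9.31. Fam49b, a Rac1-binding gene now listed as Cyrib, was at 44.6 and 20.4 FPKM, and the stress-responsive Ndrg2 at 13.2 and 5.89. Afap1l1, an actin filament-associated adaptor, was at 13.3 and 4.82 FPKM, and Reep6, of a family that shapes the endoplasmic reticulum, at 7.77 and 3.25. Ankrd34a, Dennd2a and Ptprv, whose row RefSeq annotates as a transcribed pseudogene, were between 3.23 and 5.40 FPKM with the control and between 0.693 and 2.07 with the Cbx8 hairpin. Lgals7, AI428936 and Ankrd34a were under 1 FPKM with the Cbx8 hairpin and passed the minimum only through the control library. The minimum thus fixed their direction. Tmem51 was at 19.5 and 8.73 FPKM and AU018091 at 10.2 and 4.35.

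Small structural RNAs also stood among the lower rows. Rmrp, the RNA of the RNase MRP complex that cuts ribosomal RNA precursors, was at 17.6 and 4.99 FPKM (−1.64). Rpph1, the RNase P RNA, was at 4.47 and 1.71 FPKM, and its relative Rprl3 at 4.78 and 1.67. Gm12238, annotated in RefSeq as a snoRNA but kept here because only rows with such symbols were set aside, was at 143 and 32.8 FPKM. Such RNAs mostly lack poly(A) tails, and polyadenylated RNA was sequenced, so their values rest on what passed that selection. Of the 15 measured long or host non-coding RNAs, Rmrp and Rpph1 included, 2 were positive (median −0.25), against 48.8% of all genes. Malat1 was at 78.3 and 57.1 FPKM (−0.45).

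Genes of ribosome production mostly had small negative values, and Myc was lower as well. The Myc row, which does not separate transgene from endogenous transcripts, was at 511 and 301 FPKM (−0.76). Of 10 Myc network genes 3 were positive, with the antagonist Mga at 10.9 and 7.85 FPKM and Max at 69.0 and 61.4. Of 36 ribosome biogenesis genes 4 were positive (median −0.16), with Wdr12 at 24.4 and 18.1 FPKM and Nop16 at 51.4 and 39.1, and none passed 1.5-fold. Among ribosomal proteins 3 of 43 large subunit genes and 1 of 32 small subunit genes were positive, against 48.8% of all genes. Rpl36, at 22.1 and 12.2 FPKM, was the only one past 1.5-fold, against 4.08% of all genes. Near-identical processed copies make single ribosomal rows uncertain. Elongation factors lay at a like distance, Eef1a1 at 2904 and 2399 FPKM, Eef1b2 at 378 and 312 and Eef2 at 1448 and 1194, while initiation factors such as Eif1a (112 and 129) did not. The proliferation marker Mki67 was at 21.3 and 13.2 FPKM (−0.65). Of 30 mitosis genes and 35 replication genes it was the only one past 1.5-fold, against 4.08% of all genes.

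Most interferon-stimulated genes had positive values, and no interferon gene itself has a row in the table. Interferon receptors signal through Stat2 and Irf9, among others, to the interferon-stimulated response element (ISRE). Of 57 measured genes 45 were positive (48.8% of all genes were; median 0.35). At 1.5-fold 11 were higher and 1 lower, against 2.02% and 2.06% of all genes. By role, 28 of 36 effectors and 17 of 21 sensors and factors were positive. Usp18, which removes the ubiquitin-like ISG15, was at 4.80 and 11.2 FPKM and Samd9l at 2.56 and 6.34. The antiviral synthetase Oas1a was at 6.71 and 11.4 FPKM and the pro-apoptotic Xaf1 at 2.89 and 5.69. Among factors Irf7 was at 5.11 and 10.0 FPKM (0.85) and the sensor Ifih1 at 2.53 and 4.61. Irf8, known from myeloid and B cells, was lower at 16.8 and 9.59 FPKM (−0.75), and Ifitm3 was at 323 and 306.

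The response element is shown in 4 of these promoters for the same reason, as GAAA, any 2 bases and GAAA again, searched on both strands, with overlapping matches run together in capitals. These 4 were also picked after their values were seen.
Isg15 (chr4:156200850-156200921, minus strand): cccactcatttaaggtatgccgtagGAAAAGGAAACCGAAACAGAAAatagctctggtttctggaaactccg
Ifit1 (chr19:34640760-34640838, plus strand): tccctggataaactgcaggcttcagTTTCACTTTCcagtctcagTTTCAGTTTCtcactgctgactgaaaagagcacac
Oas1a (chr5:120907526-120907570, minus strand): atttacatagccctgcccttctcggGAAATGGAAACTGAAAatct
Irgm1 (chr11:48871421-48871475, minus strand): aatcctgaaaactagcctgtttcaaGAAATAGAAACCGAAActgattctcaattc

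Isg15 itself was at 34.9 and 53.2 FPKM (0.59), the RNA-binding Ifit1 at 4.07 and 6.69 (0.60) and the GTPase Irgm1 at 11.2 and 18.3 (0.66). The letters occur in 3.44% of all promoter windows, in 3.59% of the described genes with a window, and in 23 of 50 interferon-stimulated genes (46.0%), 19 of 31 among the effectors. None of the 20 genes at least 2-fold higher that have a window holds them.

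Antigen presentation and cytokine genes lay beside them. Of 18 antigen presentation genes 12 were positive (median 0.24), and 4 were higher by 1.5-fold (2.02% of all genes), among them the class I row H2-D1 with LOC547349 (215 and 393 FPKM, 0.86) and H2-M3 (7.96 and 14.1). Reads of class I genes can be shared between near-identical copies. Relb, of the non-canonical NF-kappaB pathway, was at 6.35 and 10.8 FPKM and the inhibitor Nfkbie at 2.00 and 3.76, while the cytokine Il11 was at 9.90 and 5.46 and the chemokine Cx3cl1 at 12.2 and 7.44. Siglecg, a sialic acid-binding receptor known from B cells, was at 4.61 and 15.3 FPKM. Ptprc, a defining marker of leukocytes, has no row in the table.

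Endoplasmic reticulum and redox genes shared a direction by small amounts. For comparison, 48.8% of all genes had positive values. Of 19 unfolded protein response genes 17 were positive (median 0.24), with the chaperones Calr at 415 and 536 FPKM and Hyou1 at 47.1 and 61.2, and none passed 1.5-fold. The 12 aminoacyl-tRNA synthetases were positive in 10, with Wars at 51.3 and 67.9 FPKM. Of 27 NRF2 and glutathione genes 22 were positive (median 0.17). Gsto1, a glutathione transferase, was at 142 and 233 FPKM (0.71), the only one past 1.5-fold, against 4.08% of all genes. The sulfiredoxin Srxn1 was at 48.7 and 69.4 FPKM. Lysosomal genes were positive in 16 of 21, but the protease Ctsl was at 344 and 228 FPKM (−0.59).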

How the data were processed

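Values are the authors' deposited FPKM per gene from 1 Cuffdiff table, per the file headers. The submitters' processing notes name FastQC 0.10.0, TopHat 1.4.0, Cufflinks 1.3.0, Cuffdiff 0.0.7 and build mm9, without settings. RNA had an RNA integrity number of at least 8, per the labels' protocols. The table also holds the authors' log2 fold change and test statistic, deposited as scores and not used here, and the authors' deposited p-value and q-value, which compare single libraries. The depth is unknown: the table has no counts, and at most 4 rows shared 1 ratio to 5 decimals, so whole reads could not be recovered.

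From these values log2((knockdown FPKM + 1)/(control FPKM + 1)) was computed for rows with 1 FPKM or more in either library, with Python 3.11.15, pandas 2.3.3 and numpy 2.4.6. Genes were counted at 2-fold and 1.5-fold, and 74 gene lists were described by counts and medians beside those of all genes. No test was run, since there was 1 library per group. The counting step was tested on simulated data. These held only genes at 10 FPKM or more in the control, with changes of 1.5 or 2 on the log2 scale. Genes at lower levels and changes near 2-fold were therefore not covered. Genes named are Cbx8 with its paralogues and neighbours, Wdr5, Myc, genes past 2-fold or with q under 0.05 in the authors' deposited table, up to 6 members of a list with the largest values, all members of lists of 12 or fewer, and the 10 genes with the highest FPKM. Others, and the promoters shown, were chosen after their values were seen. The members and lists were chosen with earlier results of these data known. RefSeq symbols (GRCm38.p6) matched all 65 gene symbols of the 2-fold rows, 7 of them through synonyms. Alternatives were pseudocounts of 0.1 and 5 FPKM, other minimums, fold limits and scalings, other treatments of shared or set-aside rows, and the authors' own calls. A few genes that these rules name are not reported here.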

Additional observations from a re-analysis of the deposited data

How the results depend on the processing

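The counts of genes depended on the added constant and on the limit. Against 25 higher and 38 lower genes, a constant of 0.1 FPKM gave 81 and 102, which hold all of the 25 and 38, and a constant of 5 FPKM gave 8 and 8. A fold limit of 1.5 gave 214 and 218, and a limit of 4 gave 2 and 3. Calls at q under 0.05 in the authors' deposited table were 14 and 9. Under the other settings the counts stayed within 1.5 times: 21 and 26 with a minimum of 5 FPKM, 25 and 37 after centring on the median gene, 21 and 42 with equal upper quartiles (a shift of −0.04 on the log2 scale), and 32 and 48 with all rows kept. Each of the 36 list medians of 0.1 or more in size kept its sign under 9 alternative settings (35 could be computed with a minimum of 5 FPKM). The replication histone median moved most, from 0.39 to between 0.13 and 0.69, and the EMT median changed from −0.07 to 0.07 without a minimum. No paired analysis was possible because each group has 1 library. With 1 library, 1 hairpin and unknown depth, no difference here can be separated from variation between cultures, and the table may leave out genes with no reads.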

Other observations

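A block of chromosome 10 held some of the highest values in both libraries, and was chosen after its values were seen. Mdm2, the ubiquitin ligase of p53, was at 3509 FPKM with the control and 3576 with the Cbx8 hairpin, the highest of all genes in the control, and Nup107, a nucleoporin, was at 3002 and 2976, the next highest. Between them lies Slc35e3, at 290 and 327 FPKM. The next gene on 1 side, Cpm, is among the 38 lower genes (188 and 74.3 FPKM), and Rap1b on the other side was at 91.3 and 100.03. These 5 genes lie within 216.5 kb and made up 1.66% (control) and 1.63% (knockdown) of all FPKM described. Beyond them Mdm1 was at 5.27 and 5.32 FPKM and Cpsf6 at 30.4 and 29.2. Cpm was thus the only one of the 5 that differed by 1.5-fold. Cdkn2a, whose Arf product inhibits Mdm2, was at 418 and 407 FPKM in the same cells.

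In some gene families, also chosen after their values were seen, most members lay on the same side. Of 5 measured aquaporins 3 were at least 2-fold lower, against 0.358% of all genes. They were the water channels Aqp1 (2.46 and 0.674 FPKM), Aqp3 (3.94 and 1.39) and Aqp8 (13.1 and 6.05, −1.002). Aqp1 passed the minimum only through the control library, so the minimum fixed its direction. Aqp5 went the other way, at 4.52 and 9.27 FPKM (0.90). Of 272 genes with Zfp symbols 87 had positive values (32.0%, median −0.08), against 48.8% of all genes. Of 39 Rab GTPases 28 did (71.8%, median 0.13). Among tetraspanins 7 of 9 were positive (median 0.28), with Tspan17 at 9.11 and 18.8 FPKM.

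By chromosome the medians lay between −0.04 on chromosome 7, where 42.1% of 789 genes were positive, and 0.05 on chromosome 6, where 58.6% of 505 were. Of 390 genes on chromosome 13, 5 were at least 2-fold higher and 0 lower, and of 896 on chromosome 11, 1 was higher and 7 lower, against 0.236% and 0.358% of all genes. In windows of 10 neighbouring genes the medians ran from −0.33, in a stretch of chromosome 2 with Eya2 (9.05 and 4.04 FPKM) and Sulf2 (16.8 and 10.7), to 0.37.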
